A study of Homo sapiens with 4 samples.

Results

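KCNQ1OT1, NORAD, TUG1, OIP5-AS1, PVT1 and FTX are 6 widely studied genes for long non-coding RNAs, taken here by gene name from the 62700 genes of GENCODE 44. The annotation types 5 of the 6 as lncRNA and TUG1 as protein_coding. PR100-FLAG, a poly(PR) dipeptide repeat protein with 100 proline-arginine repeats and a triple FLAG tag, crosslinked most often to KCNQ1OT1, with 471 crosslink events in 4 libraries, then to PVT1 with 404, FTX with 303, TUG1 with 172, OIP5-AS1 with 69 and NORAD with 29. Exons of at least 1 transcript held 97.2% of the KCNQ1OT1 events, 6.68% in PVT1 and 16.5% in FTX, where such exons fill 90.2%, 6.48% and 12.0% of the spans. FTX carried 70.3% of its events in the first 3 of 10 equal parts of its span.

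Poly(PR) is translated from the expanded repeat of C9orf72, which is inherited in families with motor neuron disease or frontotemporal dementia. The study asked which RNAs poly(PR) touches in human cells. HEK293T cells, a human embryonic kidney line, were transiently transfected with a pcDNA5 plasmid for PR100-FLAG, induced with doxycycline at 150 ng/ml for 24 h and irradiated with UV light at 160 mJ/cm2 and 254 nm. Complexes were captured through the FLAG tag for iiCLIP, an assay in which the base before the end of each cDNA marks the crosslinked position. All 4 libraries belong to the single PR100-FLAG condition, with protein overexpressed from a plasmid. Complexes were purified by SDS-PAGE in replicates 1 to 3 and with beads in replicate 4. Control libraries were not analysed here, so every comparison lies between genes, or between parts of a gene, within these libraries. The labels do not say whether the replicates came from separate cultures, and their spread may be technical. An event depends both on how much of an RNA the cells hold and on how often poly(PR) crosslinks to it, and these cannot be told apart here.

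Long non-coding RNAs act as RNA rather than as templates for protein. KCNQ1OT1 is transcribed antisense to KCNQ1 from the paternal chromosome and silences neighbouring imprinted genes in cis. NORAD is an abundant cytoplasmic RNA that binds Pumilio proteins through repeated sites. TUG1 is a broadly expressed RNA with nuclear and cytoplasmic forms, OIP5-AS1 (cyrano) is a conserved RNA transcribed from the strand opposite OIP5, PVT1 is a long locus beside MYC that hosts miRNA hairpins, and FTX lies in the X-inactivation centre and hosts miRNAs of its own.

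The sequences of the significant clusters of KCNQ1OT1 and TUG1 are shown first, since these are places where the authors' peak caller found events to be concentrated. Sequence is GRCh38, on the strand of the gene and 5′ to 3′, and capitals mark crosslinked positions. The KCNQ1OT1 clusters are printed whole with 10 nt on either side, and the TUG1 clusters as 30 nt that start 10 nt before the position with the most cDNAs. Both TUG1 windows show only part of their cluster. In TUG1 cluster 2 that position, 30971633, is the last base of the cluster, so the later bases and their capital lie outside it.
KCNQ1OT1 cluster 1, chr11:2619240-2619285 (−): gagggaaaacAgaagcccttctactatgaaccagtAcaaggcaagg
KCNQ1OT1 cluster 2, chr11:2643160-2643286 (−): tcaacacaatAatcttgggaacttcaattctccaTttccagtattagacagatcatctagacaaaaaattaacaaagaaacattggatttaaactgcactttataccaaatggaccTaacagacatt
TUG1 cluster 1, chr22:30970681-30970710 (+): atgtctaggcTgtgtggttggtggtgaata
TUG1 cluster 2, chr22:30971623-30971652 (+): ttatttttgaAttttgggactgttgacctT

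A second set shows the motif that is compared with the events further on. GANGA stands for a pentamer, read on the strand of the gene, with A, G or C as its middle base, that is GAAGA and the forms in which its middle A is replaced by G or by C. For NORAD, TUG1, OIP5-AS1 and FTX the window begins 5 nt before the position that held the most cDNAs among those with such a motif nearby, so that the crosslinked base is base 6, and capitals mark the motif.
NORAD, chr20:36050338-36050377 (−): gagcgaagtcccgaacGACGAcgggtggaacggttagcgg
TUG1, chr22:30970802-30970831 (+): catggaattcctGAAGAtgtttggggtttt
OIP5-AS1, chr15:41298230-41298259 (+): taacatctccagGAAGAaagaagcaactca
FTX, chrX:74209762-74209801 (−): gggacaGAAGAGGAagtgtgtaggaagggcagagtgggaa

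Every one of these 4 windows rested on a single library, with 5 cDNAs of replicate 2 in NORAD, 3 of replicate 2 in TUG1, 3 of replicate 1 in OIP5-AS1 and 4 of replicate 1 in FTX. The 30 bases that start at the crosslinked position stand once in the genome for TUG1, OIP5-AS1, FTX and all 5 clusters. They stand 2 times for NORAD, so that the placement of those 5 cDNAs rests on bases further along the read.

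The 4 libraries held 334057, 604816, 125694 and 179636 events in replicates 1 to 4, of which 517, 583, 142 and 206 lay in the 6 genes. Replicate 3 stood apart. Its random barcode had 5 nt instead of 7, and its 142 events in the 6 genes lay on 39 positions, or 3.64 events per position, against 1.02 to 1.58 in the other libraries. Over the whole library it had 2.16 events per position, against 1.15 to 1.67 in the others. In replicate 3 a handful of positions therefore decide each share.

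KCNQ1OT1 (ENSG00000269821.2, chr11:2597308-2700003, − strand) held 155, 174, 57 and 85 events in replicates 1 to 4. These are 464, 288, 453 and 473 CPM (counts per 1000000 events of the library), or 420 ± 88.3 (SD, n = 4). Replicates 1, 3 and 4 lay close together and replicate 2 well below them. By pooled events it ranked 87 among all genes. PVT1 (ENSG00000249859.14, chr8:127794526-128187101, + strand) held 145, 161, 43 and 55 events, or 434, 266, 342 and 306 CPM (337 ± 71.7, SD, n = 4), at rank 137. FTX (ENSG00000230590.13, chrX:73940435-74293574, − strand) held 137, 110, 19 and 37 events, at rank 292. Its CPM values of 410, 182, 151 and 206 (237 ± 117, SD, n = 4) put replicate 1 at 2.71 times replicate 3.

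TUG1 (ENSG00000253352.10, chr22:30969245-30979395, + strand) held 61, 79, 14 and 18 events, which are 183, 131, 111 and 100 CPM (131 ± 36.5, SD, n = 4). OIP5-AS1 (ENSG00000247556.7, chr15:41283958-41322392, + strand) held 17, 35, 9 and 8 events, or 50.9, 57.9, 71.6 and 44.5 CPM (56.2 ± 11.6, SD, n = 4). NORAD (ENSG00000260032.2, chr20:36045618-36051018, − strand) held 2, 24, 0 and 3 events, or 5.99, 39.7, 0 and 16.7 CPM (15.6 ± 17.5, SD, n = 4). Replicate 2 gave 82.8% of the NORAD events, and 5 events are left without it. The count of 0 in replicate 3 allows up to 3 events, or 23.9 CPM, so the value lies within counting error of replicate 4.

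Within each library KCNQ1OT1 had the highest CPM of the 6 genes, followed by PVT1 and then FTX, although the ranges of these 3 genes over the libraries overlap. These levels follow the whole span, which runs from 5401 nt in NORAD to 392576 nt in PVT1, and were not tested between genes.

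**Figure D1:**
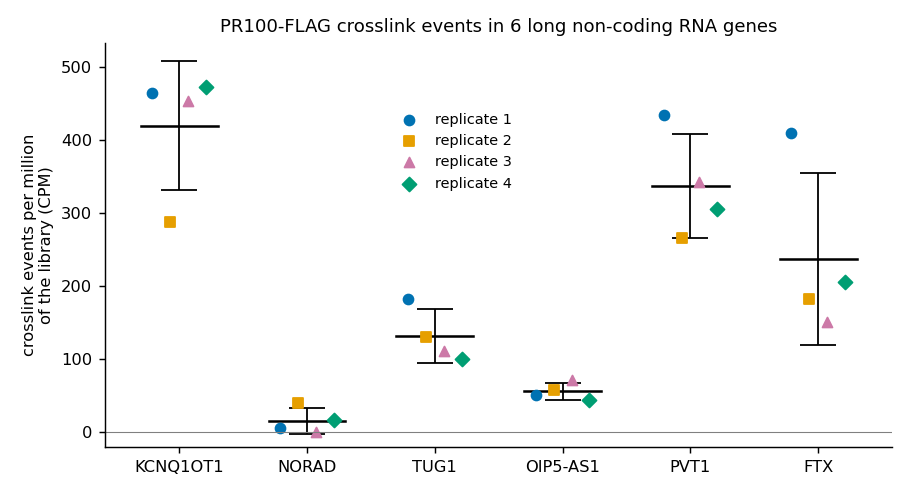
Crosslink events in CPM (y axis) for the 6 genes (x axis). Points are libraries, long lines the mean and bars the SD of 4 libraries. KCNQ1OT1 and PVT1 lie between 266 and 473 CPM in every library, NORAD between 0 and 39.7 CPM, and FTX is spread by its replicate 1 value of 410 CPM.

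The study analysed genes with at least 200 events that also had little binding in its control libraries. Those controls were not analysed here, so only the minimum of 200 events was applied. KCNQ1OT1, PVT1 and FTX reached this number, 3 of the 6 genes, beside 2.62% of the 29263 genes with at least 1 event and 0.533% of the 8820 lncRNA genes with at least 1 event. FTX fell to 166 events without replicate 1 and to 193 without replicate 2. The median lncRNA gene with an event held 3.00, and each of the 6 genes held more than that. The number of events rises with the length of a span, and the 3 genes over the threshold are the 3 longest of the 6.

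Per kilobase of span the order was different. TUG1 held 16.9 events per kb, NORAD 5.37, KCNQ1OT1 4.59, OIP5-AS1 1.80, PVT1 1.03 and FTX 0.858, and the median lncRNA gene with an event held 0.146. Levels on exons, the union of all annotated transcripts, were compared in each library as log2 of CPM per kb after adding 0.5 events, with an exact two-sided sign-flip permutation test over the 4 libraries. This test can give no p below 0.125, so no pair could pass 0.05, and the 10 pairs at 0.125 had an adjusted p of 0.188 (Benjamini-Hochberg over 15 pairs).

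TUG1 had exonic levels of 18.0, 12.9, 11.0 and 9.87 CPM per kb and stood above the other 5 genes in 4 of 4 libraries. Its smallest mean difference was that from KCNQ1OT1, 1.56 ± 0.53 on the log2 scale (SD, n = 4, exact p = 0.125). On canonical exons KCNQ1OT1 against TUG1 gave -0.92 ± 0.96 (SD, n = 4, exact p = 0.250), and TUG1 was not above in every library. KCNQ1OT1, at 4.78, 3.03, 4.90 and 4.99, was above OIP5-AS1, PVT1 and FTX in 4 of 4 libraries. OIP5-AS1, at 1.74, 2.29, 1.07 and 1.74, was above PVT1 and FTX in 4 of 4 libraries, but only with this definition of exons. On the exons of the canonical transcript alone the mean difference turned to -1.78 against PVT1 and -1.42 against FTX. Those exons held 1 event in OIP5-AS1, 7 in PVT1 and 0 in FTX. The value against FTX therefore comes mostly from the added 0.5 events and the exon lengths. NORAD, at 1.11, 7.35, 0 and 3.09 CPM per kb, changed its place between libraries relative to KCNQ1OT1, OIP5-AS1, PVT1 and FTX, and so did PVT1 relative to FTX. The mean difference of NORAD from FTX was 1.95 ± 1.54 on the log2 scale (SD, n = 4, exact p = 0.250). In replicate 3 both genes had 0 exonic events, so its value of 2.97 comes only from the added 0.5 events and the exon lengths. Without replicate 3 the mean difference was 1.61 ± 1.69 (SD, n = 3).

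Among the 4 genes with introns in the union of transcripts, KCNQ1OT1 had the highest mean ratio of exonic to intronic density. Its 14 transcripts merge to 3 exonic stretches of 92625 nt that fill 90.2% of the span, and the rest, 10071 nt, is intronic in every transcript. Exonic events numbered 148, 170, 57 and 83 in replicates 1 to 4 and intronic events 7, 4, 0 and 2. Log2 of exonic over intronic events per kb, with 0.5 events added to each, was 1.11, 2.04, 3.64 and 1.86, above 0 in 4 of 4 libraries (mean 2.16 ± 1.07, SD, n = 4, exact sign-flip p = 0.125, adjusted p = 0.50 over 4 genes).

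Such a ratio above 0 in every library was common. Of 145 lncRNA genes with introns and at least 100 events, 44.8% showed it, with a median log2 ratio of 1.15, so that KCNQ1OT1, 1 of the 3 such genes named here with at least 100 events, does not stand out by direction. The size also depended on the definition of an exon: the mean was 1.34 with each position counted once and 0.99 on the canonical transcript, whose 4 exons hold only 679 nt and 5 events. On canonical exons PVT1 at 1.67 and FTX at 1.73 exceeded KCNQ1OT1, on 7 and 0 canonical exonic events, so that the FTX value comes from the added 0.5 events. All 13 intronic events of KCNQ1OT1 lay between 91937 and 102215 nt from the 5′ end, where its intronic sequence lies. The ninth of 10 equal parts, largely exonic, held 19 events and was also sparse, so intron and 3′ position cannot be told apart.

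PVT1 showed the opposite distribution by count. Its 190 transcripts leave 59 exonic stretches of 25431 nt, and 377 of its 404 events fell in the 367145 nt between them. Exonic events numbered 13, 12, 1 and 1 and intronic events 132, 149, 42 and 54. Per length the densities were the same to within the spread, with 1.06 exonic and 1.03 intronic events per kb and log2 ratios of 0.56, 0.27, -0.97 and -1.33 (mean -0.37 ± 0.92, SD, n = 4, exact p = 0.50). Replicates 1 and 2 lay above 0 and replicates 3 and 4 below it. Of the intronic events 28.8%, 28.2%, 2.38% and 27.8% lay within 1000 nt of an exon in replicates 1 to 4, against 25.0% of all intronic positions, and replicate 3 lay apart from the other libraries.

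FTX was similar. Its 79 transcripts leave 42249 nt of exonic sequence, with 22, 21, 0 and 7 exonic and 115, 89, 19 and 30 intronic events. The log2 ratios of 0.52, 0.82, -2.41 and 0.86 had a mean of -0.05 ± 1.58 (SD, n = 4, exact p = 1.0), and 0.73 without replicate 3, whose 19 events held none on an exon (exact 95% binomial interval of the share up to 17.6%). Of the intronic events 18.1% ± 2.10 (SD, n = 4) lay within 1000 nt of an exon, against 16.4% of intronic positions. In OIP5-AS1 the ratios were 1.11, 2.33, -1.37 and 1.84 (mean 0.98 ± 1.64, SD, n = 4, exact p = 0.375), above 0 in 3 of 4 libraries, and 1.76 without replicate 3, with 54 exonic and 15 intronic events in all.

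**Figure D2:**
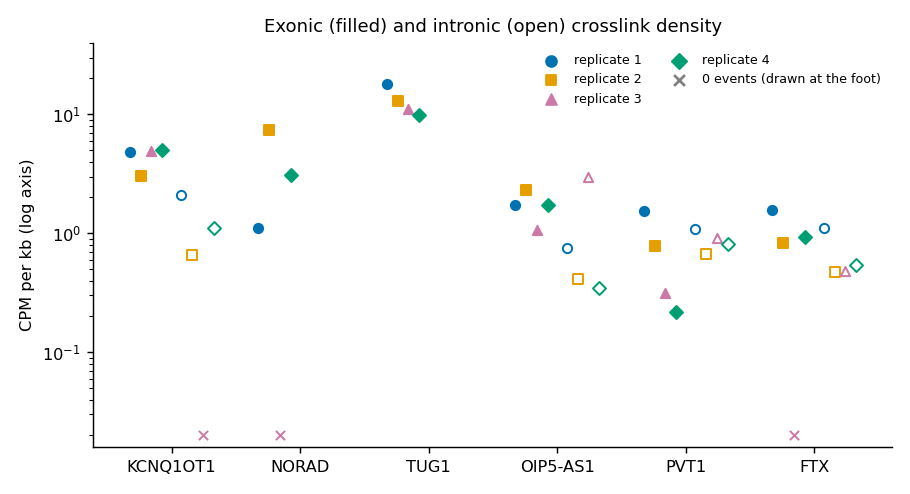
CPM per kb (y axis, log scale) on exonic (filled) and intronic (open) sequence of the 6 genes (x axis), 1 point per library. Crosses at the foot mark libraries with 0 events. TUG1 and NORAD have no intronic sequence in the union of transcripts. In KCNQ1OT1 the 4 exonic values lie above all 4 intronic ones, and in PVT1 and FTX the ranges overlap.

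Within FTX the events were unevenly placed. In the first 3 of 10 equal parts, 105942 nt from the 5′ end, lay 102, 77, 14 and 20 events, which are 74.5%, 70.0%, 73.7% and 54.1% of the FTX events of replicates 1 to 4 (68.0% ± 9.53, SD, n = 4). The density was 2.01 events per kb there and 0.364 in the other 7 parts, and the first stretch was denser in each of the 4 libraries. Single parts held 53, 60 and 100 events and then 13, 12, 14, 30, 9, 7 and 5. These stretches were set after the counts had been seen, and the difference is a description without a test. Sequence that stands more than once in the genome, by its next 30 bases, made up 11.1% of the first 3 parts and 24.7% of the others, and its part in the difference was not tested. The exons gave the same order, since 95.5%, 81.0% and 100% of exonic events in replicates 1, 2 and 4 lay between the 5′ end and the midpoint of the joined exons (92.1% ± 9.95, SD, n = 3, exact sign-flip p = 0.250, the smallest that 3 libraries allow).

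The opposite strand of FTX held more events than FTX itself, with 433 against 303. FTX was the only one of the 6 genes of which this was true, its sense share being 44.3% ± 6.90 (SD, n = 4) against 90.9% to 100% for the others. Of the 433, 374 lay in JPX (ENSG00000225470.9, chrX:73944182-74070408, + strand), a lncRNA that activates XIST and whose whole span lies inside that of FTX. JPX held 161, 158, 16 and 39 events, or 1.18, 1.44, 0.842 and 1.05 times the FTX events of the same library. A further 36, of which 32 came from replicate 2, lay in the pseudogene RAB11FIP1P1. On the FTX strand opposite JPX only 30 events were found in 126227 nt, 0.238 per kb, against 273 events or 1.20 per kb in the rest of FTX and 2.96 per kb for JPX on its own strand. The 2 strands thus held their events in different stretches of the locus.

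**Figure D3:**
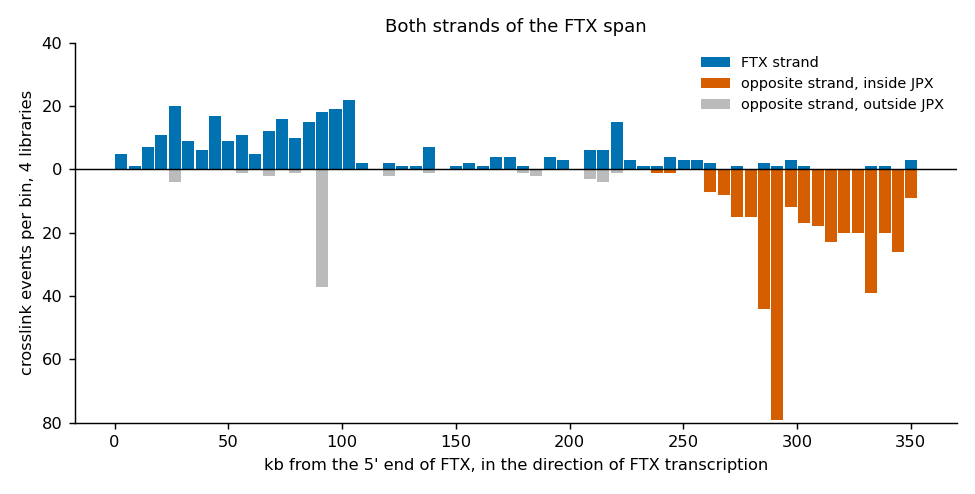
Pooled crosslink events of the 4 libraries in 60 equal bins (y axis, events per bin) along the FTX span (x axis, kb from the 5′ end of FTX). Events on the FTX strand point up and events on the opposite strand point down. FTX events fill the first 105942 nt, at 2.01 per kb, and JPX events, 374 in all, fill the far end.

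KCNQ1OT1 had the opposite relation to its antisense partner. KCNQ1, a potassium channel gene on the opposite strand whose span contains that of KCNQ1OT1, had 4, 4, 0 and 0 events on its own strand within that span, against 155, 174, 57 and 85 on the KCNQ1OT1 strand. Over its full 404452 nt KCNQ1 held 60 events, or 0.148 per kb, beside 4.59 per kb in KCNQ1OT1. Events covered the KCNQ1OT1 span with 40 to 77 in each of the first 8 of 10 equal parts and 30 in the last 2. CDKN1C, the imprinted growth inhibitor silenced by KCNQ1OT1, held 0 events in each library, which allows up to 3 per library.

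TUG1 is covered by exons of at least 1 of its 20 transcripts over the whole span, so introns were taken from the canonical transcript, which has 3 exons of 7474 nt. Those exons held 57, 71, 14 and 12 events in replicates 1 to 4 and its introns 4, 8, 0 and 6, that is 20.6 and 6.72 events per kb pooled. In replicate 4 the introns, which are shorter, were the denser part. The annotated reading frame, 459 nt of 1 transcript near the 5′ end, held 1, 1, 3 and 0 events, or 10.9 per kb against 17.2 in the rest of the span. The small misc_RNA genes annotated inside TUG1 held 18 of its 172 events. The 10 equal parts held 9 to 26 events each, and the last part owed 8 of its 15 to 1 position of replicate 3.

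NORAD is a single exon of 5401 nt. Of its 29 events 17 lay in the first 3 of 10 equal parts, 14 of them from replicate 2. No event lay within 15 nt of the 15 Pumilio motifs (TGTANATA on the strand of the gene) of the span, where 8.94% of positions lie that close, but 0 of 29 events allows a share of up to 10.3%, so for this motif and distance a difference from the span was not detectable at this depth. Within 30 nt the count was 1, where 15.6% of the span lies that close. For the shorter TGTA alone, within 15 nt, the share of events was below that of the span in all 3 libraries with events, by a difference of -23.5 ± 7.22 points (SD, n = 3, exact p = 0.250, the smallest that 3 libraries allow). NORAD was also the most repeated sequence of the 6. The next 30 bases stand more than once in the genome at 64.0% of its positions, against 0% in TUG1 and 9.95% to 30.9% in the other 4 genes. Of the 29 events, 31.0% lay on such positions. The authors kept only uniquely mapping reads, and how many NORAD reads this removed was not tested.

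OIP5-AS1 lies almost wholly inside ENSG00000285920, a protein-coding gene of the same strand, and all 69 of its events are shared with that gene and cannot be assigned to either. The sixth of 10 equal parts held 25 of the 69 events, 16 of them from replicate 2. Only 1 event fell on the 6 canonical exons of 3231 nt. On the opposite strand there were 9 events, 4 of them in OIP5, which held 9 in all.

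The miRNA hairpins hosted by PVT1 and FTX carried no events. The 5 hairpins of PVT1 (MIR1204 to MIR1208, 349 nt) held 0 of 404 events, which allows a share of up to 0.743%, and the 4 of FTX (MIR421, MIR374B, MIR545 and MIR374A, 335 nt) held 0 of 303, which allows up to 0.990%. The hairpins make up 0.0889% and 0.0949% of the spans, so a depletion could not have been seen.

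The GANGA motifs were then compared with the events. The authors found GAAGA enriched at crosslink sites of these same PR100-FLAG data, and the window used below is also theirs. An excess beside the motif here is therefore not independent support for it. An event counted as beside a motif where a GANGA pentamer began from 5 nt upstream to 30 nt downstream of it, and its background was the share of all positions of the span with such a motif, on the same strand. In KCNQ1OT1 the shares were 23.9%, 14.4%, 36.8% and 16.5% against 12.8% of the span, above it in 4 of 4 libraries by 10.0 ± 10.2 percentage points (SD, n = 4, exact p = 0.125, adjusted p = 0.375 over 6 genes) and by 5.39 points without replicate 3. In FTX they were 11.7%, 10.0%, 21.1% and 18.9% against 7.53%, above it in 4 of 4 libraries by 7.88 ± 5.40 points (exact p = 0.125, adjusted p = 0.375).

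PVT1 had 23.4%, 19.9% and 25.5% in replicates 1, 2 and 4 against 9.52% of the span, but 4.65% in replicate 3, where 43 events lay on 10 positions. Without replicate 3 the mean excess was 13.4 points, and with each position counted once it was 12.0 points in 4 libraries. TUG1 was at its background, with 9.84%, 13.9%, 0% and 22.2% against 12.0%, and its mean difference changed sign between settings. The 0% stands for 0 of 14 events, with an exact 95% binomial interval up to 23.2%. OIP5-AS1 had 17.6%, 8.57%, 0% and 12.5% against 7.04%, where 0 of 9 events has an interval up to 33.6%. NORAD had 50.0%, 29.2% and 33.3% in replicates 1, 2 and 4 against 16.9%, from 9 of 29 events, and 7 of the 9 came from replicate 2.

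Of the 149 lncRNA genes with at least 100 events, 16.1% lay above their span in 4 of 4 libraries, and 2 of the 3 such genes named here did so, KCNQ1OT1 and FTX. The 149 leave out TUG1, typed protein_coding, which lay above its span in 2 libraries and below it in 2. The median excess over the 149 genes was 4.05 points. Exact 95% binomial intervals of the pooled shares, which cover counting error only and treat cDNAs of 1 position as independent, ran from 17% to 24.5% in KCNQ1OT1, 16.5% to 24.6% in PVT1 and 9.03% to 16.8% in FTX, each above the share of the span. Leaving out positions whose next 30 bases stand more than once in the genome, an alternative chosen after seeing the data, gave 7.54 points above the span in KCNQ1OT1, 8.65 in FTX, 6.66 in PVT1 and 1.24 in OIP5-AS1. In NORAD the excess of 20.6 points became 8.13 (n = 3, exact p = 1.0).

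**Figure D4:**
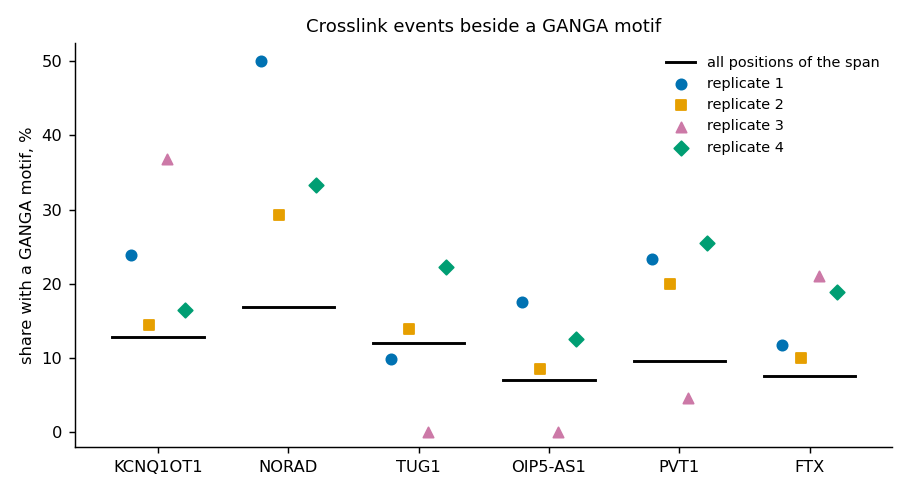
Share of events beside a GANGA motif (y axis, %) in the 6 genes (x axis), 1 point per library. Black lines mark the share of all positions of the span. All 4 points of KCNQ1OT1 and FTX lie above their lines, and replicate 3 lies below the line in TUG1, OIP5-AS1 and PVT1.

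UV light crosslinks uridine most readily, so the crosslinked base was read as well. The crosslinked base was U in 33.5%, 25.3%, 24.6% and 34.1% of the events in KCNQ1OT1 against 23.8% of the span, and in 30.3%, 32.3%, 46.5% and 36.4% in PVT1 against 29.1%. Both lay above the span in 4 of 4 libraries, by 5.53 ± 5.16 and 7.32 ± 7.20 points (SD, n = 4, exact p = 0.125, adjusted p = 0.375 each), as did 30.9% of the 149 lncRNA genes, whose median excess was 9.56 points. Without replicate 3 the PVT1 excess was 3.94 points. Against the bases within 5 nt of the events it was 4.54 points in KCNQ1OT1 (exact p = 0.250) and 5.14 in PVT1 (exact p = 0.50), and neither held in 4 of 4 libraries. FTX was at 50.4%, 51.8% and 43.2% in replicates 1, 2 and 4 against 31.7%, and at 10.5% in replicate 3, with an excess of 7.33 points over 4 libraries and 16.8 without replicate 3. TUG1 had 34.4%, 48.1% and 38.9% in replicates 1, 2 and 4 against 30.3% and 0% of 14 events in replicate 3. OIP5-AS1 ranged from 12.5% to 88.9% on 8 to 35 events. In KCNQ1OT1 the most frequent crosslinked base was A, with 173 of 471 events or 36.7%. A was also the most common base of that span, at 33.0%.

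Positions seen in more than 1 library were rare. Of the 962 crosslinked positions in the 6 genes 4 were found in at least 2 libraries, or 0.416%, against 2.04% of the 784115 positions of the whole series. These shares were not matched for the density of events, and its part in the difference was not tested. Of the 39 positions with at least 4 pooled events, 2 were found in at least 2 libraries and 14 came from replicate 3 alone. The highest positions of KCNQ1OT1 and PVT1, with 11 cDNAs each, were both read in replicate 3 only, as were those of TUG1 with 8 and of FTX with 6.

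The authors' clusters, called on the pooled libraries, placed 2 in KCNQ1OT1, 2 in TUG1 and 1 in OIP5-AS1, all of them on exons, and none in NORAD, PVT1 or FTX. Among lncRNA genes with at least 100 events 49.7% had a cluster, and 1 of the 3 named here did. That count leaves out TUG1, typed protein_coding, which held 172 events and 2 clusters. KCNQ1OT1 cluster 1, printed above, took 11 of its 13 cDNAs from replicate 3 and 2 from replicate 2, and cluster 2 took 7 of 11 from replicate 3 and 4 from replicate 1. TUG1 cluster 1, 150 nt with 19 cDNAs, was the best shared, with 5, 11, 0 and 3 cDNAs in replicates 1 to 4, and contains the GAAGA window shown for TUG1. TUG1 cluster 2 took 11 of 12 cDNAs from replicate 1. The OIP5-AS1 cluster held 1, 6, 3 and 0 cDNAs. No summit of the 5 clusters had a GANGA motif beside it. In the lists of single libraries TUG1 had 1 cluster in replicate 1 and 1 in replicate 2, and the other genes had none. Clusters held 5.10% of the KCNQ1OT1 events, 18.0% of those in TUG1 and 14.5% of those in OIP5-AS1.

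Genes that act with these RNAs or lie beside them were counted in the same way. Of 10 such genes 3 reached 200 events. The Pumilio gene PUM2 held 211 events, above the 29 of its partner NORAD, on a span of 103544 nt. Per kb of span the order was reversed, with 2.04 events in PUM2 and 5.37 in NORAD. EZH2 and SUZ12, subunits of Polycomb repressive complex 2, held 224 and 151, the RNA-binding protein gene ELAVL1 129, MYC 50, and RLIM, an E3 ligase of X inactivation, 154. Besides PUM2 and EZH2, JPX passed 200, with 374 events, the most of these genes. JPX also counts among the other lncRNAs below.

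Among 22 other well-known lncRNAs 5 reached 200 events: MALAT1 with 5574, NEAT1 with 1340, JPX with 374, FIRRE with 257 and DLEU2 with 246. These 22 were a chosen list, which leaves out XIST with 6632 events. The median of the 22 was 41.0 events, and 10 of them held fewer than the 29 of NORAD. TUG1, at 16.9 events per kb, was thus well below MALAT1 at 534 and NEAT1 at 58.9. Over the 4 libraries, centred log2 CPM was compared between the mean profile of the 6 genes and 763 genes with at least 200 events. The nearest were ERC1, LARP4B and ENSG00000288643, at Euclidean distances of 0.11, 0.14 and 0.14. They were picked as the nearest, so these distances are small by choice, and the median was 0.87. The 6 genes were themselves spread about that mean. TUG1 lay 0.49 away, PVT1 0.60, KCNQ1OT1 0.79, OIP5-AS1 0.81, FTX 0.84 and NORAD 2.37.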

How the data were processed

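The members, the lists of partner and other lncRNA genes and the tests were chosen with earlier results of these data known. The authors demultiplexed the reads in iMaps, collapsed PCR duplicates by random barcode, mapped them with STAR (version not given in the sources used here) to GRCh38 with Gencode 27, allowing 2 mismatches, and kept unique mappers. The deposited lists give, without normalisation, how many cDNAs with different barcodes ended at each position of each strand, as counts for the 4 libraries and for their pool. The authors called clusters with iCount at a false discovery rate of 0.05, and the cluster lists carry summed counts. The pooled list was checked to be the sum of the 4 libraries.

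Events were counted within each GENCODE 44 gene span on its strand with Python 3.11.15, numpy 2.4.6 and pysam 0.24.0, and recounted with bedtools 2.31.1. An event counted for every gene that spans it. CPM used the library total (125694 to 604816 events). Exons were the union of all transcripts. Differences were tested over libraries by exact two-sided sign flips, a permutation test, with Benjamini-Hochberg adjustment within each family, and scripts were tested on simulated data. Named genes were the 6 members, the partner genes, the other lncRNAs with at least 200 events and the 3 nearest profiles. Named positions were the highest position and up to 3 clusters per gene, and the windows beside motifs were added after seeing the data. No sequence is printed for PVT1, and 1 partner gene and some sequences are not reported here. Alternatives counted each position once, left out each replicate, the highest position or events in other genes, and changed exons, pseudocount, motifs, windows and thresholds.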

Additional observations from a re-analysis of the deposited data

Results flagged for a closer look

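Among 24 groups of 4 library values, 2 had a library far from the other 3, where chance gives about 1 in 20. In KCNQ1OT1 replicate 2 lay at 288 CPM, apart from 464, 453 and 473 CPM in the other libraries, and its gap to the nearest of them was 0.894 of the whole range. In FTX the log2 ratio of exonic over intronic density was -2.41 in replicate 3, apart from 0.52, 0.82 and 0.86, with a gap of 0.896 of the range. That FTX value came from 0 exonic and 19 intronic events on 7 positions.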

How the results depend on the processing

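Of 496 alternative values for 63 results 430 kept their direction or stayed near the main value, 33 changed sign and 33 moved. Some of the 430 could not differ from the main value, so the tally overstates stability. A changed library total cancels in a difference between genes, and some filters removed no event of a gene. The exonic excess of KCNQ1OT1 and the GANGA excess of KCNQ1OT1, PVT1 and FTX kept their sign in every setting run. No test could pass 0.05 with 4 libraries, so p-values say nothing about stability, and the cause of a change was not tested unless named. The exons of the canonical transcript are few. On them log2 of exonic over intronic density turned to -1.02 in OIP5-AS1, 1.67 in PVT1 and 1.73 in FTX. The exonic differences turned there to -0.23 for NORAD against PVT1, -1.78 for OIP5-AS1 against PVT1 and -1.42 for OIP5-AS1 against FTX. The excess in the 5′ part of these exons turned to 50.0 points in KCNQ1OT1, from 5 events in 3 libraries. In OIP5-AS1 it turned to 50.0 points as well, but from 1 event in 1 library, so it has no spread. With each position counted once, the exonic ratio became 0.18 in PVT1 and 0.18 in FTX, the GANGA difference 0.946 points in TUG1 and -0.551 in OIP5-AS1, the U difference -0.810 in TUG1 and the 5′ difference 0.741 in KCNQ1OT1. In FTX the exonic ratio was 0.08 without its highest position and 0.22 with 1 event added. In TUG1 the GANGA difference was 1.93 points for GAAGA alone and 2.48 with 30 nt on either side (-0.622 in OIP5-AS1), and the U difference -4.17 against bases within 5 nt. For NORAD events within 30 nt of a Pumilio motif the mean of 3 library shares lay 1.06 points above the span, because 1 of the 2 events of replicate 1 was that close, whereas pooled it was 1 of 29 events against 15.6% of the span.

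Leaving out each replicate in turn gave -0.06 to 0.75 for the exonic difference of NORAD from OIP5-AS1, the low value without replicate 2, and -0.55 to 0.75 for PVT1 from FTX, the low value without replicate 3. The FTX exonic ratio ran from -0.35 to 0.73, the TUG1 GANGA difference from -4.09 to 3.32 points and the OIP5-AS1 one from -0.0114 to 5.87. The TUG1 U difference ran from -5.86 to 10.2 points, and the 5′ difference from -6.38 to 1.07 in KCNQ1OT1 and from -8.12 to 25.2 in PVT1. With at least 20 cDNAs required, no cluster was left in the 6 genes. OIP5-AS1 had no events left outside other genes. The planned share of events in soft-masked repeats was not run because the genome used here has no lower-case bases. No paired analysis was possible because all libraries belong to 1 group.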
